A study of Mus musculus with 4 samples.

Results

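The genes described are 35 that copy DNA or supply its building blocks, chosen by name, out of 15002 genes in the deposited tables. All 35 were present as rows of the tables of 4 tumours, and their levels were read in barcodes with at least 500 unique molecular identifiers (UMIs, tags that count single mRNA molecules). All 4 tumours were mouse medulloblastomas from untreated animals at postnatal day 16. They carried hGFAP-Cre, the activated Smoothened allele SmoM2, and both floxed alleles of Prkaa1 (Prkaa1fl/fl) and of Prkaa2 (Prkaa2fl/fl), which encode the catalytic subunits of the energy sensor AMPK. Untreated Prkaa1/2-intact tumours are not analysed here. The Cre driver is active in neural progenitors that give rise to neurons and glia, so recombination is not limited to the granule lineage from which these tumours arise. The labels give 1 group, so every comparison below is between cell classes within the same 4 tumours. They do not say whether each library came from a separate animal, so the p-values measure the spread between these 4 samples.

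DNA replication starts from origins that are licensed in G1, when Cdc6 and partner proteins load the ring-shaped MCM helicase. In S phase Cdc45 and GINS switch that helicase on, polymerase alpha and primase lay down primers, and the sliding clamp PCNA, loaded by RFC, holds the polymerases on the template. Ribonucleotide reductase, thymidylate synthase and dUTPase keep the deoxynucleotide pools supplied. Many of these genes are transcribed by E2F factors at the G1 to S transition. In the cerebellum the granule neuron progenitor is the main dividing cell after birth, and Sonic hedgehog (SHH) signalling keeps it dividing.

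Quality filters kept 364 of 766, 286 of 807, 555 of 566 and 1059 of 1083 such barcodes in tumours 1 to 4, and removing called doublets left 362, 276, 551 and 1046 cells. The median cell had 799.5 to 973.5 UMIs. Most barcodes lost in tumours 1 and 2 were over the limit of 10% mitochondrial UMIs, and these 2 libraries stand apart from the other 2 in many genes. Among the cells used 0 barcodes were shared between libraries. Prkaa1 had 6, 1, 3 and 5 UMIs and Prkaa2 5, 1, 10 and 13 over the cells of tumours 1 to 4, and 3' tags outside the deleted part do not check the deletion.

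Cells were clustered on other genes, with the 35 genes and a fixed list of 64 further replication and nucleotide genes left out, and clusters were named from marker lists. A cluster of 377 cells was called S-phase-like (leading genes Hist1h1b and Lgals1), 328 cells were G2/M-like (Aspm, Casc5, Pif1) and 459 were granule-neuron-like (Grin2b, Neurod2, Jph4). No list named 2 further clusters. A cluster of 676 cells was led by Cmya5, Atoh1 and Hes1, where Atoh1 is the transcription factor of granule progenitors, and is called Atoh1-led. A cluster of 315 cells was led by Pdzrn3, Sept4, Chrnb4 and Pde1c and is called Pde1c-led. A further 80 cells had glial, vessel or immune markers. In tumours 1 to 4 the share of S-phase-like cells was 13.0%, 15.6%, 18.5% and 17.7%.

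The S-phase-like name needs a limit stated first. Its 50 leading genes held 7 S-phase and 6 G2/M markers, and the mean log2 fold was 0.63 over the S-phase list and 0.86 over the G2/M list, so both names met the minimum. Its 28 G2/M marker genes summed to 17180 ± 5216 CPM (counts per 1e+06 UMIs, mean ± SD over 4 tumours), against 26760 ± 7715 in G2/M-like cells and 2845 ± 1452 in the Atoh1-led cluster. The cluster thus carried G2/M transcripts as well. At a clustering resolution of 2 the S-phase-like class was smaller (226 cells) and its G2/M markers summed to 9868 ± 4301 CPM. Values from that finer clustering are given beside counts and tests that it changed, where they were computed. Contrasts with the unnamed clusters apart, and the class in which each gene was highest, were not computed at that resolution. The design pooled both unnamed clusters as non-dividing cells. The Atoh1-led cluster was low in G2/M markers yet high in the replication genes, and whether its cells divide was not tested. Its 37 S-phase marker genes summed to 5950 ± 1090 CPM, against 9039 ± 1725 in S-phase-like and 2327 ± 712 in granule-neuron-like cells. The non-dividing label is thus uncertain for it. The clusters were also tested apart, a split chosen after the data were examined. Median depth was 834 UMIs in S-phase-like, 1581.5 in G2/M-like, 818 in Atoh1-led, 768 in Pde1c-led and 762 in granule-neuron-like cells (neurons below). Their median mitochondrial share was 2.11%, 2.30%, 2.37%, 2.72% and 3.04% in that order. Depth and mitochondrial share thus moved with the classes. On sums of cells thinned to 500 UMIs, 15 of the 16 genes tested were still higher in S-phase-like cells than in neurons and 15 of 16 in G2/M-like cells, beside 370 and 298 of all 1616 genes tested. Without the mitochondrial limit no S-phase-like cluster formed, and 26 of 28 genes were higher in G2/M-like cells than in neurons, beside 963 of all 5042.

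Promoter sequence from RefSeq (GRCm38.p6, 250 bases before to 50 after each start) was matched by symbol for 30 of the 35 genes, and not for Mcm4, Gins2, Pole, Prim2 and Atad2. Of these, 14 (46.7%) held 1 of 4 E2F octamers (TTTCCCGC, TTTCGCGC, TTTGCCGC or TTTGGCGC, either strand), against 2.6% of 27025 genes. The letters TTTGAA, the CHR element of many G2/M genes, were in 4 of 30 (13.3%) against 20.2% of all genes. CCAAT was in 20 of 30 (66.7%) against 41.1%. The E2F octamers matched in Mcm3, Mcm5, Mcm6, Mcm7, Cdca7, Clspn, Rfc3, Lig1, Dnmt1, Atad5, Cdc6, Uhrf1, Hells and Pola1. A match is a run of letters and not a shown binding site. The 6 sequences printed belong to genes called different between G2/M-like cells and the Atoh1-led cluster, 4 lower in G2/M (Mcm6, Cdca7, Mcm2, Pcna) and 2 higher (Rrm1, Rrm2). Atad2, the remaining gene called there, was not matched. Each runs 5′ to 3′ on the gene's strand, with E2F octamers in capitals. They lie at chr1:128359656-128359955 (minus strand), chr2:72475969-72476268 (plus strand), chr6:88898731-88899030 (minus strand), chr2:132253131-132253430 (minus strand), chr7:102441445-102441744 (plus strand) and chr12:24708004-24708303 (plus strand).
Mcm6: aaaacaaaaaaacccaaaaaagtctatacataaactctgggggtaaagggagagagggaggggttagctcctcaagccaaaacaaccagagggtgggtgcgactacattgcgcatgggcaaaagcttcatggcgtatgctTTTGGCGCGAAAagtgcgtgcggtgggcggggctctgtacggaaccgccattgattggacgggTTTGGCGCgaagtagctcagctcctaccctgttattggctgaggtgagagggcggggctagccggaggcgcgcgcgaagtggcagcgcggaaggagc
Cdca7: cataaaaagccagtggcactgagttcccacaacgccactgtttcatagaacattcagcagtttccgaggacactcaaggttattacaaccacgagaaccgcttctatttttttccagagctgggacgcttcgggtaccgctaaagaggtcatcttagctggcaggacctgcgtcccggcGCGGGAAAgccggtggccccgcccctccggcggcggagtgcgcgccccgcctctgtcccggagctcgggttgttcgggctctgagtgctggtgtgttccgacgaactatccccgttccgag
Mcm2: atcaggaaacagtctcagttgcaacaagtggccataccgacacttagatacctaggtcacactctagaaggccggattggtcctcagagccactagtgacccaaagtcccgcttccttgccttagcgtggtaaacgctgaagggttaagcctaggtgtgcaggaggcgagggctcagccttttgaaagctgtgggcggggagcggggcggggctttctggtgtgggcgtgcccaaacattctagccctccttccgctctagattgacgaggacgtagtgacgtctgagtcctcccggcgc
Pcna: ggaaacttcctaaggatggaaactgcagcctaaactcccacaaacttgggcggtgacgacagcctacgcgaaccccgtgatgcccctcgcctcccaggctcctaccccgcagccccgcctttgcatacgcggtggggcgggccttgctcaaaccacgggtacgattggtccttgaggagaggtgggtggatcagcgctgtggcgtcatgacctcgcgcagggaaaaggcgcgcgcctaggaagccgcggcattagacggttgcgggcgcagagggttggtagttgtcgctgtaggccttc
Rrm1: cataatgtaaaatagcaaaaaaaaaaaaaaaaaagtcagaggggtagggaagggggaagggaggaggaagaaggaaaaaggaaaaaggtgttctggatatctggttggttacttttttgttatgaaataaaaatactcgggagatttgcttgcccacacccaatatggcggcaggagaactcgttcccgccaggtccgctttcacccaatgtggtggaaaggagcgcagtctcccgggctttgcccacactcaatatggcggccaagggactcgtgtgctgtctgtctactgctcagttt
Rrm2: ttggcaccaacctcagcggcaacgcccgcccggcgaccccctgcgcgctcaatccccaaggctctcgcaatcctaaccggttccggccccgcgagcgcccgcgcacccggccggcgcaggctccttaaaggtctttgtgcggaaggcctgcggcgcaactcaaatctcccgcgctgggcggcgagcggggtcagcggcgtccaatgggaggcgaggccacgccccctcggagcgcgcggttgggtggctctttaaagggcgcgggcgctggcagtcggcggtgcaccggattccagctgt
In Mcm6 the matches begin 110, 106 and 47 bases before the start, and the first 2 overlap, reading TTTGGCGC and, on the other strand, TTTCGCGC. Cdca7 has 1 match, 71 bases before the start. The Mcm2, Pcna, Rrm1 and Rrm2 windows hold none of the 4 octamers, and the Mcm2 window holds 1 CHR match.

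Summed over the 35 genes, S-phase-like cells held 7873, 8251, 6550 and 6995 CPM in tumours 1 to 4, a mean of 7417 ± 782. The Atoh1-led cluster held 5289, 6035, 5721 and 6018 CPM and G2/M-like cells 5903, 5251, 5380 and 5572. These 2 classes overlapped each other, and both lay below the S-phase-like class in every tumour. The Pde1c-led cluster held 1721, 2520, 1814 and 2782 CPM and neurons 1369, 1651, 743 and 1317. Neurons were the lowest of these 5 classes in every tumour. At resolution 2 the sums were 8666 ± 241 CPM in S-phase-like cells, 4414 ± 579 in G2/M-like cells, 5057 ± 506 in the pooled unnamed clusters and 1328 ± 354 in neurons. The 80 glial, vessel or immune cells held 1185, 1588, 2942 and 2115 CPM, so neurons were below them in 2 of 4 tumours. By mean CPM, 21 of 35 genes were highest in S-phase-like cells, 11 in the Atoh1-led cluster (Mcm2, Mcm3, Mcm4, Mcm6, Mcm7, Gins2, Rpa2, Fen1, Hells, E2f1 and Cdca7), 3 in G2/M-like cells (Prim2, Rrm2 and Uhrf1) and 0 in the Pde1c-led cluster or neurons. With doublets kept, the fitted log2 fold of S-phase-like against Atoh1-led cells turned from below to above 0 for Hells (0.38), Rpa2 (0.19), Gins2 (0.15), Mcm3 (0.04) and Mcm7 (0.02), with none of them called.

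**Figure D1:**
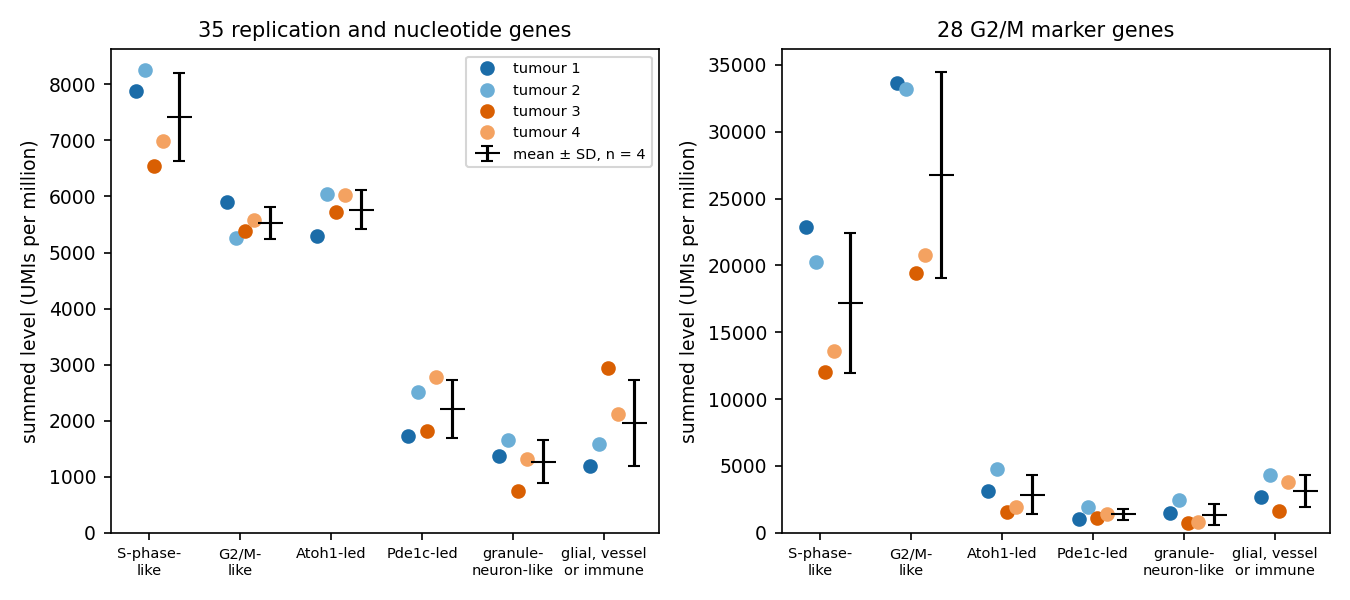
Summed level of the 35 replication and nucleotide genes (left) and of 28 G2/M marker genes (right) in CPM, by cell class; points are tumours and black marks the mean ± SD of 4 tumours. The Atoh1-led cluster lies beside G2/M-like cells on the left and near neurons on the right.

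All 35 genes are accounted for in what follows. Of them 23 passed the filter on low counts in the fit over 4 classes and 24 in the fit over 5 classes. A gene can pass through the class where it is high, so counts below are of tested genes and are read beside the share of all tested genes called (edgeR quasi-likelihood test, Benjamini-Hochberg adjusted p under 0.05). Against neurons, 22 of 23 were higher in S-phase-like cells, where 24.7% of all tested genes were called higher. G2/M-like cells were higher than neurons in 21 of 23, beside 22.2% of all genes. At resolution 2 these counts were 25 of 25 and 20 of 25, beside 600 and 575 of all 3024 genes. The pooled unnamed clusters were higher than neurons in 23 of 23, beside 18.2%. That count was 24 of 25 at resolution 2, 15 of 21 without tumour 4, 11 of 21 in tumours 1 and 2 alone and 2 of 32 with each cell assigned by most marker UMIs, where this class exists in tumours 3 and 4 only and 8 of the genes changed sign. Over all genes the calls were 514 of 2827 in the reported fit, and 572 of 3024, 244 of 2774, 101 of 2124 and 55 of 4621 under these alternatives. S-phase-like cells were higher than the pooled clusters in 11 of 23, beside 7.11%, and lower in 0, beside 3.50%. This count was 7 without tumour 2, 7 without tumour 4, 4 in tumours 1 and 2 alone and 6 of 25 at resolution 2. Over all genes it was 201 of 2827 in the reported fit, and 216 of 3226, 131 of 2774, 77 of 2124 and 44 of 3024 in these. The 11 were Atad2, Atad5, Clspn, Lig1, Pcna, Pola1, Prim1, Rfc4, Rrm1, Rrm2 and Tyms. Without the term for tumour, 1 of them (Atad2) passed, and 12 of 23 passed for the pooled clusters against neurons, beside 81 and 56 of all 2827 genes. The median log2 fold of the tested genes was 2.65 for S-phase-like cells against neurons and 0.55 against the pooled clusters, where the medians of all 2827 genes tested were 0.09 and -0.03.

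The classes were built from other genes of the same cells, and the contrasts share their classes, so their counts are not independent of each other. Split by cluster, the Atoh1-led cluster was higher than neurons in 24 of 24 tested genes, where 19.5% of all genes were called higher. It was higher than the Pde1c-led cluster in 18 of 24, beside 6.68%. S-phase-like cells were higher than the Pde1c-led cluster in 21 of 24, beside 11.9%. Only 4 of 24 genes were called between the Pde1c-led cluster and neurons, all higher in the former and beside 3.83% of all genes. These were Mcm7, Prim1, Pcna and Cdca7. The count was 0 without tumour 3, beside 48 of all 2288 genes called higher, and 1 without tumour 4, beside 30 of 2271. It was 0 without the tumour term, beside 2 of 2875. Without that term the Atoh1-led cluster was above the Pde1c-led cluster in 3 of 24 and S-phase-like cells in 12 of 24, beside 10 and 132 of all 2875 genes. The finer contrasts split the genes by direction. Against the Atoh1-led cluster, S-phase-like cells were higher in 6 (Atad2, Pola1, Rfc4, Rrm1, Rrm2, Tyms) and lower in 1 (Mcm6), beside 5.22% and 1.39% of all genes. G2/M-like cells were higher in 3 (Atad2, Rrm1, Rrm2) and lower in 4 (Mcm2, Mcm6, Pcna, Cdca7), beside 6.78% and 2.33%. Leaving out 1 tumour at a time gave 1 to 7 and 2 to 5 calls in these contrasts. Over all genes the calls ran from 85 of 2271 to 205 of 3290 and from 123 of 2271 to 255 of 3290. Without tumour 4, which holds most UMIs, only Atad2 passed in the first contrast and only Atad2 and Cdca7 in the second. Without the tumour term 1 (Atad2) and 0 passed, beside 62 and 78 of all 2875 genes. Within tumours 1 and 2 alone there was 1 call in each contrast, Atad2 and Cdca7, beside 50 and 76 of all 1669 genes.

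**Figure D2:**
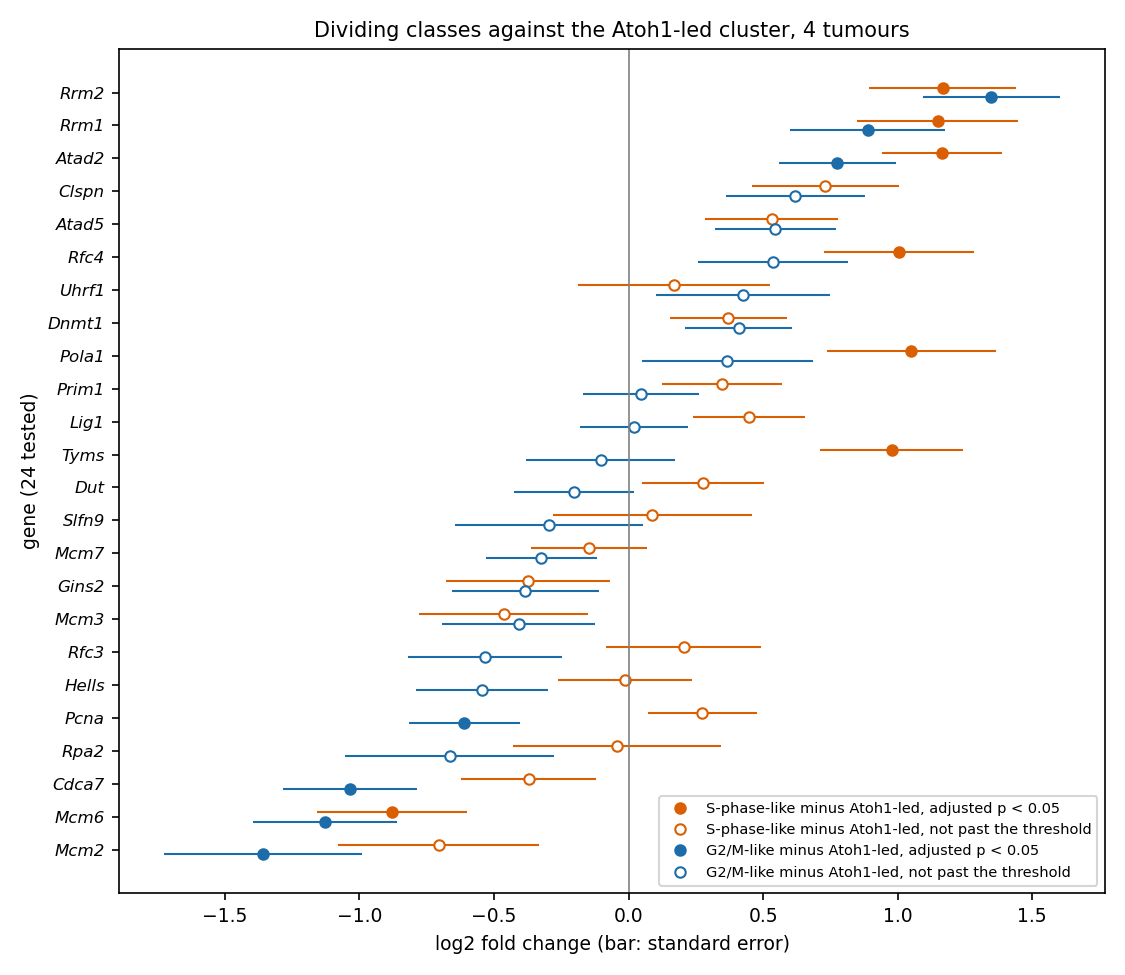
Log2 fold change of 24 tested genes in S-phase-like (orange) and G2/M-like (blue) cells against the Atoh1-led cluster, with standard errors from the edgeR fit to 4 tumours. Filled points have an adjusted p under 0.05. Rrm2, Rrm1 and Atad2 lie to the right in both contrasts, and Mcm6 to the left in both.

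Between S-phase-like and G2/M-like cells 2 of 23 tested genes were called, Pcna and Tyms, both higher in the S-phase-like class, where 0.141% of all genes were called higher. None of the 23 was lower, beside 0.566% of all genes. This count depended on how the classes were drawn. At resolution 2, 15 of 25 tested genes were higher in the S-phase-like class (Atad2, Dnmt1, Dut, Hells, Lig1, Mcm2, Mcm3, Mcm4, Mcm6, Pcna, Prim1, Rfc3, Rpa2, Slfn9 and Tyms). With doublets kept it was 8 of 27, and with each cell assigned to the class with the most marker UMIs 14 of 32. The count over all genes rose too, from 4 of 2827 called higher to 39 of 3024 at resolution 2, 16 of 3059 with doublets kept and 46 of 4621 by most marker UMIs. Leaving out 1 tumour left 0 or 1 of the original pair called, Pcna without tumour 1, Tyms without tumour 2 and neither without tumour 3 or 4. Over all genes 3 of 2866, 4 of 3226, 1 of 2822 and 2 of 2774 were called higher without tumours 1 to 4 in turn. Without the tumour term 0 passed, beside 0 of all 2827 genes. Atad5, Cdca7, Clspn, Gins2, Mcm7, Pola1, Rfc4, Rrm1, Rrm2 and Uhrf1 were called at neither resolution.

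**Figure D3:**
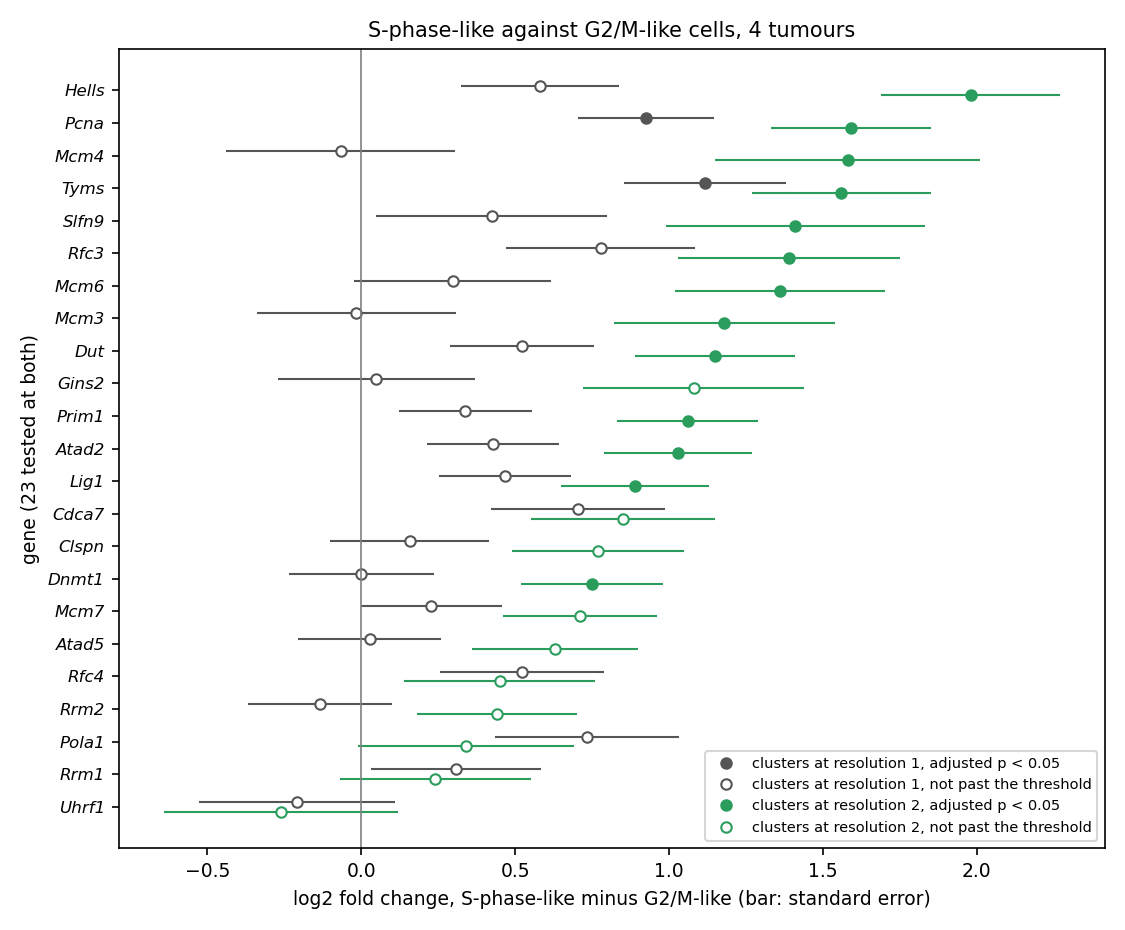
Log2 fold change between S-phase-like and G2/M-like cells for the 23 genes tested under both clusterings, at resolution 1 (grey) and 2 (green). Bars are standard errors from the edgeR fits to 4 tumours, and filled points have an adjusted p under 0.05. Most genes lie further right at resolution 2, and Uhrf1 lies left of 0 under both.

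The 6 subunits of the MCM2-7 helicase come first. Values are CPM in tumours 1 to 4, in that order. Mcm6 stood at 159, 0, 161 and 218 CPM in S-phase-like cells and 60.5, 70.5, 259 and 129.7 in G2/M-like cells. For Mcm6, the Atoh1-led cluster held 199, 259, 372 and 319 CPM, the Pde1c-led cluster 23.6, 58.6, 47.3 and 89.5 and neurons 0, 35.9, 36 and 18.3. Every Atoh1-led value of Mcm6 was above the S-phase-like value of the same tumour. Mcm6 was 1.84-fold lower in S-phase-like cells (log2 fold -0.88, SE 0.28, adjusted p = 0.035) and 2.19-fold lower in G2/M-like cells (log2 fold -1.13, SE 0.27, adjusted p = 0.00122). The S-phase-like difference was lost without tumours 2, 3 or 4 and with doublets kept. Mcm2 was at 79.5, 179, 80.4 and 72.8 CPM in S-phase-like cells and 60.5, 70.5, 20.7 and 63.3 in G2/M-like cells. For Mcm2, the Atoh1-led cluster held 169, 119.5, 135 and 149 CPM, the Pde1c-led cluster 0, 58.6, 63.1 and 37.3 and neurons 10.7, 0, 12 and 12.2. The Mcm2 values of G2/M-like cells were all below those of the Atoh1-led cluster, 2.56-fold in the fit (log2 fold -1.36, SE 0.37, adjusted p = 0.00645). Mcm2 did not pass the filter without tumour 3 or tumour 4. At resolution 2 Mcm2 was 4.65-fold higher in S-phase-like than in G2/M-like cells (log2 fold 2.22, SE 0.48, adjusted p = 0.000826).

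Mcm3 stood at 186, 149.5, 103 and 146 CPM in S-phase-like cells and 181, 35.2, 134 and 161 in G2/M-like cells. For Mcm3, the Atoh1-led cluster held 107, 239, 218 and 193 CPM, the Pde1c-led cluster 0, 0, 63.1 and 52.2 and neurons 10.7, 0, 12 and 24.4. Atoh1-led and S-phase-like values of Mcm3 overlapped, and both were above all neurons. Mcm4 was at 106, 29.9, 115 and 109 CPM in S-phase-like cells and 72.6, 52.9, 145 and 114 in G2/M-like cells. For Mcm4, the Atoh1-led cluster held 123, 59.8, 96.3 and 149 CPM, the Pde1c-led cluster 0, 0, 78.9 and 52.2 and neurons 0, 17.9, 24 and 54.9. Mcm4 values of S-phase-like, G2/M-like and Atoh1-led cells overlapped each other, and its neuronal level was 26.9% of the S-phase-like one. At resolution 2 the S-phase-like class was higher than G2/M for Mcm3 (log2 fold 1.18, SE 0.36, adjusted p = 0.0343) and Mcm4 (log2 fold 1.58, SE 0.43, adjusted p = 0.015).

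Mcm5 stood at 53.0, 89.7, 138 and 109 CPM in S-phase-like cells and 60.5, 0, 20.7 and 75.9 in G2/M-like cells. For Mcm5, the Atoh1-led cluster held 92.0, 39.8, 141 and 105 CPM, the Pde1c-led cluster 0, 117, 31.6 and 22.4 and neurons 21.4, 17.9, 24 and 24.4. Mcm5 did not pass the filter in either fit, and its S-phase-like and Atoh1-led values overlapped. Mcm7 was at 292, 269, 345 and 395 CPM in S-phase-like cells and 314, 229, 321 and 297 in G2/M-like cells. For Mcm7, the Atoh1-led cluster held 169, 358, 411 and 472 CPM, the Pde1c-led cluster 70.7, 205, 237 and 224 and neurons 42.8, 144, 95.9 and 97.6. Mcm7 was 3.64-fold higher in S-phase-like cells than in neurons (log2 fold 1.86, SE 0.30, adjusted p = 4.85e-07), with no overlap. It was also 2.00-fold higher in the Pde1c-led cluster than in neurons (log2 fold 1.0, SE 0.34, adjusted p = 0.0459). Mcm7 shares exon bases with Ap4m1 and Cops6 on the other strand and with Mir25 and Mir93. The counting is not stated to use strand, so their reads cannot be told apart there. Summed over the 6 subunits, the Atoh1-led cluster held 858, 1076, 1374 and 1388 CPM and S-phase-like cells 875, 718, 942 and 1050, with 1 tumour of 4 lower in the Atoh1-led cluster.

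Of the origin firing factors, Gins2, a subunit of the GINS complex, varied more between tumours than between classes. Gins2 stood at 292, 239, 115 and 72.8 CPM in S-phase-like cells and 145, 352, 82.8 and 98.1 in G2/M-like cells. For Gins2, the Atoh1-led cluster held 153, 398, 116 and 149 CPM, the Pde1c-led cluster 236, 352, 31.6 and 104 and neurons 139, 233, 12 and 48.8. Every pair of classes overlapped for Gins2, and the test against neurons was not passed by S-phase-like cells (log2 fold 0.70, SE 0.37, adjusted p = 0.12). The Atoh1-led cluster was 2.07-fold higher than neurons (log2 fold 1.05, SE 0.32, adjusted p = 0.00539), and its log2 fold was 0.45 in tumours 1 and 2 alone (adjusted p = 0.522) and 1.84 in tumours 3 and 4 alone (adjusted p = 0.00123). In GENCODE M21, 67.3% of the exon bases of Gins2 (2758 of 4097) also lie in exons of Gse1 on the other strand, so a Gse1 read counted without strand cannot be told apart from Gins2. Cdc6 was at 106, 89.7, 69.0 and 67.6 CPM in S-phase-like cells and 12.1, 52.9, 41.4 and 53.8 in G2/M-like cells. For Cdc6, the Atoh1-led cluster held 0, 19.9, 70.6 and 61.5 CPM, the Pde1c-led cluster 0, 0, 63.1 and 59.7 and neurons 10.7, 17.9, 0 and 6.10. Cdc6, which loads the helicase, was higher in S-phase-like than in G2/M-like cells of every tumour, without overlap, but did not pass the filter. Cdc45 (85 UMIs in all) and Mcm10 (68 UMIs) were highest in the S-phase-like class by mean, at 56.9 and 46.8 CPM, and had 0 UMIs in neurons of 2 and 3 tumours.

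Prim1 encodes the catalytic primase subunit. Prim1 stood at 451, 448, 391 and 327 CPM in S-phase-like cells and 290.3, 388, 238 and 323 in G2/M-like cells. For Prim1, the Atoh1-led cluster held 353, 279, 289 and 293 CPM, the Pde1c-led cluster 94.3, 29.3, 78.9 and 194 and neurons 64.2, 53.8, 12 and 42.7. All Atoh1-led values of Prim1 lay above all Pde1c-led ones. Prim1 was 8.66-fold higher in S-phase-like cells than in neurons (log2 fold 3.11, SE 0.33, adjusted p = 9.43e-12) and 2.80-fold higher in the Pde1c-led cluster (log2 fold 1.49, SE 0.43, adjusted p = 0.016). The latter log2 fold was 0.02 in tumours 1 and 2 alone (adjusted p = 0.996), 2.16 in tumours 3 and 4 alone (adjusted p = 0.0015) and 0.62 without tumour 4 (adjusted p = 0.747). Pola1 was at 212, 299, 161 and 208 CPM in S-phase-like cells and 169, 176, 114 and 104 in G2/M-like cells. For Pola1, the Atoh1-led cluster held 76.7, 139, 64.2 and 117 CPM, the Pde1c-led cluster 0, 117, 15.8 and 59.7 and neurons 10.7, 71.8, 36 and 36.6. Pola1 encodes the catalytic subunit of polymerase alpha. Its S-phase-like values were all above the Atoh1-led ones, 2.07-fold in the fit (log2 fold 1.05, SE 0.31, adjusted p = 0.0219), a call lost with doublets kept and without tumours 2, 3 or 4. Pole, of the leading-strand polymerase, and Prim2, the large primase subunit, had 43 and 56 UMIs in all. Their class means ran from 3.05 to 30.1 and from 1.52 to 38.0 CPM, with 0 UMIs in neurons of 3 tumours each.

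Pcna encodes the sliding clamp. Pcna stood at 451, 508, 471 and 488 CPM in S-phase-like cells and 278, 194, 228 and 291 in G2/M-like cells. For Pcna, the Atoh1-led cluster held 383, 358, 295 and 501 CPM, the Pde1c-led cluster 118, 234, 126 and 172 and neurons 107, 126, 12 and 54.9. S-phase-like values were above all G2/M-like values, and so were the Atoh1-led ones. Pcna was 1.90-fold higher in S-phase-like than in G2/M-like cells (log2 fold 0.93, SE 0.22, adjusted p = 0.018), and 3.01-fold at resolution 2 (log2 fold 1.59, SE 0.26, adjusted p = 4.11e-06). It was 1.53-fold lower in G2/M-like cells than in the Atoh1-led cluster (log2 fold -0.61, SE 0.21, adjusted p = 0.0457), a call lost without tumours 1, 3 or 4. The Pde1c-led cluster was 2.21-fold above neurons (log2 fold 1.14, SE 0.37, adjusted p = 0.0382), with a log2 fold of 0.47 in tumours 1 and 2 alone (adjusted p = 0.849) and 1.86 in tumours 3 and 4 alone (adjusted p = 0.00496).

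Rfc3 stood at 345, 209, 149 and 135 CPM in S-phase-like cells and 96.8, 106, 114 and 104 in G2/M-like cells. For Rfc3, the Atoh1-led cluster held 138, 179, 116 and 173 CPM, the Pde1c-led cluster 118, 146, 47.3 and 119 and neurons 74.8, 89.7, 36 and 54.9. Rfc3, a small clamp-loader subunit, did not overlap between S-phase-like and G2/M-like cells, but was not called there (log2 fold 0.78, SE 0.31, adjusted p = 0.356). It was called at resolution 2 (log2 fold 1.39, SE 0.36, adjusted p = 0.00796). Rfc4 was at 159, 59.8, 287 and 317 CPM in S-phase-like cells and 145, 141, 197 and 189.8 in G2/M-like cells. For Rfc4, the Atoh1-led cluster held 76.7, 59.8, 167 and 135 CPM, the Pde1c-led cluster 47.2, 58.6, 31.6 and 67.1 and neurons 64.2, 17.9, 12 and 42.7. Rfc4, another clamp-loader subunit, was higher in S-phase-like cells than in the Atoh1-led cluster in 4 of 4 tumours, though barely in tumour 2 (log2 fold 1.01, SE 0.28, adjusted p = 0.0105). That call was lost without tumours 3 or 4 and with doublets kept. Of the Rfc4 exon bases, 12.7% also lie in Eif4a2 on the other strand.

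Atad5 stood at 477, 628, 184 and 198 CPM in S-phase-like cells and 436, 370.0, 259 and 225 in G2/M-like cells. For Atad5, the Atoh1-led cluster held 322, 199, 199 and 152 CPM, the Pde1c-led cluster 47.2, 87.9, 78.9 and 89.5 and neurons 139, 89.7, 48.0 and 48.8. Atad5, which unloads PCNA, was 3.92-fold above neurons in S-phase-like cells (log2 fold 1.97, SE 0.31, adjusted p = 4.53e-07), and its Pde1c-led and neuronal values overlapped. Rpa2 was at 132, 0, 91.9 and 146 CPM in S-phase-like cells and 36.3, 70.5, 72.4 and 82.3 in G2/M-like cells. For Rpa2, the Atoh1-led cluster held 123, 19.9, 128 and 126 CPM, the Pde1c-led cluster 0, 0, 15.8 and 52.2 and neurons 32.1, 17.9, 0 and 42.7. Rpa2, a subunit of the single-strand binding protein RPA, was 3.92-fold higher in the Atoh1-led than in the Pde1c-led cluster (log2 fold 1.97, SE 0.55, adjusted p = 0.00596). Its level in the Pde1c-led cluster overlapped that of neurons.

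Lig1 and Fen1 join and trim Okazaki fragments. Lig1 stood at 716, 1196, 276 and 353 CPM in S-phase-like cells and 617, 299.5, 341 and 297 in G2/M-like cells. For Lig1, the Atoh1-led cluster held 521, 578, 321 and 264 CPM, the Pde1c-led cluster 165, 146, 110.4 and 164 and neurons 171, 179.5, 36 and 61.0. Tumours 1 and 2 were the high ones in the S-phase-like class, and every S-phase-like value was above every neuronal one. Lig1 was 5.17-fold higher there than in neurons (log2 fold 2.37, SE 0.28, adjusted p = 4.72e-10). At resolution 2 it was also 1.85-fold higher than in G2/M-like cells (log2 fold 0.89, SE 0.24, adjusted p = 0.0136). Fen1 was at 0, 0, 115 and 67.6 CPM in S-phase-like cells and 24.2, 17.6, 51.7 and 69.6 in G2/M-like cells. For Fen1, the Atoh1-led cluster held 46.0, 19.9, 83.5 and 58.6 CPM, the Pde1c-led cluster 0, 0, 15.8 and 14.9 and neurons 0, 0, 24 and 18.3. Fen1 had 100 UMIs in all and 0 in the S-phase-like cells of tumours 1 and 2. Of its exon bases 78.8% also lie in the annotated gene Gm10143 on the other strand.

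Of the nucleotide supply genes, Rrm1 and Rrm2 encode the large and small subunits of ribonucleotide reductase, and both were higher in S-phase-like and in G2/M-like cells than in the Atoh1-led cluster. Rrm2 stood at 106, 269, 310.3 and 400.1 CPM in S-phase-like cells and 206, 176, 404 and 414 in G2/M-like cells. For Rrm2, the Atoh1-led cluster held 61.3, 59.8, 206 and 149 CPM, the Pde1c-led cluster 0, 0, 31.6 and 112 and neurons 10.7, 17.9, 12 and 54.9. In every tumour both dividing classes were above the Atoh1-led cluster. Rrm2 was 2.54-fold higher in G2/M-like cells (log2 fold 1.35, SE 0.25, adjusted p = 2.2e-05) and 2.25-fold higher in S-phase-like cells (log2 fold 1.17, SE 0.27, adjusted p = 0.00125) than in the Atoh1-led cluster. Between the dividing classes it did not pass (log2 fold -0.13, SE 0.23, adjusted p = 0.868), nor at resolution 2 (log2 fold 0.44, SE 0.26, adjusted p = 0.492).

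Rrm1 stood at 79.5, 329, 229.8 and 259.8 CPM in S-phase-like cells and 206, 176, 124 and 218 in G2/M-like cells. For Rrm1, the Atoh1-led cluster held 30.7, 99.6, 160.5 and 96.7 CPM, the Pde1c-led cluster 70.7, 29.3, 78.9 and 82.0 and neurons 32.1, 89.7, 24 and 36.6. Rrm1 was higher than in the Atoh1-led cluster in 4 of 4 tumours for S-phase-like cells (log2 fold 1.15, SE 0.30, adjusted p = 0.00526) and 3 of 4 for G2/M-like cells (log2 fold 0.89, SE 0.29, adjusted p = 0.034). The second call was lost without tumours 1, 2 or 4. Tyms was at 292, 179, 322 and 348 CPM in S-phase-like cells and 96.8, 35.2, 145 and 199 in G2/M-like cells. For Tyms, the Atoh1-led cluster held 107, 179, 122 and 196 CPM, the Pde1c-led cluster 23.6, 0, 15.8 and 59.7 and neurons 32.1, 17.9, 24 and 12.2. Tyms, thymidylate synthase, was higher in S-phase-like than in G2/M-like cells in every tumour, and higher than in the Atoh1-led cluster in 3 tumours and almost equal to it in tumour 2. The difference was 2.17-fold against G2/M-like cells (log2 fold 1.12, SE 0.26, adjusted p = 0.0169) and 1.97-fold against the Atoh1-led cluster (log2 fold 0.98, SE 0.27, adjusted p = 0.00803). At resolution 2 it was 2.95-fold against G2/M-like cells (log2 fold 1.56, SE 0.29, adjusted p = 6.55e-05). Dut stood at 159, 299, 345 and 431 CPM in S-phase-like cells and 60.5, 229, 300 and 294 in G2/M-like cells. For Dut, the Atoh1-led cluster held 61.3, 239, 321 and 369 CPM, the Pde1c-led cluster 23.6, 146, 142 and 157 and neurons 42.8, 71.8, 36 and 122. Dut, the dUTPase, was lowest in tumour 1 in the first 4 of these classes. It was 4.16-fold higher in S-phase-like cells than in neurons (log2 fold 2.06, SE 0.30, adjusted p = 8.51e-08) and, at resolution 2, 2.22-fold higher than in G2/M-like cells (log2 fold 1.15, SE 0.26, adjusted p = 0.00122).

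Genes that copy chromatin and methylation at the fork differed among themselves. Atad2 stood at 689, 718, 506 and 327 CPM in S-phase-like cells and 459.6, 511, 362 and 282 in G2/M-like cells. For Atad2, the Atoh1-led cluster held 291, 139, 173 and 231 CPM, the Pde1c-led cluster 70.7, 58.6, 47.3 and 74.6 and neurons 42.8, 17.9, 48.0 and 67.1. Atad2, a chromatin-bound ATPase, was highest in S-phase-like, next in G2/M-like and lower in Atoh1-led cells in every tumour. It was 2.24-fold higher in S-phase-like cells than in the Atoh1-led cluster (log2 fold 1.16, SE 0.22, adjusted p = 4.28e-05), the one call of this contrast that held without each tumour in turn, within both pairs of tumours and without the tumour term. G2/M-like cells were 1.71-fold above the Atoh1-led cluster (log2 fold 0.78, SE 0.22, adjusted p = 0.00996), a call lost without tumours 2 or 3. Hells was at 186, 389, 264 and 343 CPM in S-phase-like cells and 242, 141, 217 and 206 in G2/M-like cells. For Hells, the Atoh1-led cluster held 260.6, 339, 302 and 313 CPM, the Pde1c-led cluster 0, 87.9, 47.3 and 172 and neurons 53.5, 53.8, 0 and 54.9. Hells, a chromatin remodeller needed for DNA methylation, was at 103% of its S-phase-like mean in the Atoh1-led cluster. All its G2/M-like values were below those of the Atoh1-led cluster, though the test was not passed (log2 fold -0.54, SE 0.25, adjusted p = 0.19). At resolution 2 S-phase-like cells were 3.95-fold above G2/M-like cells for Hells (log2 fold 1.98, SE 0.29, adjusted p = 3.19e-07).

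Dnmt1 stood at 530.2, 299, 402 and 343 CPM in S-phase-like cells and 351, 405, 352 and 424 in G2/M-like cells. For Dnmt1, the Atoh1-led cluster held 353, 319, 244 and 305 CPM, the Pde1c-led cluster 401, 205, 78.9 and 164 and neurons 118, 89.7, 132 and 116. Dnmt1, the maintenance DNA methyltransferase, was not called between S-phase-like and G2/M-like cells (log2 fold 0.00, SE 0.24, adjusted p = 1), and stood at 53.9% of its S-phase-like mean in the Pde1c-led cluster and 28.9% in neurons. At resolution 2 it passed (log2 fold 0.75, SE 0.23, adjusted p = 0.0337). Uhrf1 was at 79.5, 89.7, 138 and 146 CPM in S-phase-like cells and 84.7, 106, 228 and 146 in G2/M-like cells. For Uhrf1, the Atoh1-led cluster held 46.0, 19.9, 148 and 141 CPM, the Pde1c-led cluster 47.2, 117, 0 and 44.8 and neurons 32.1, 17.9, 12 and 24.4. Uhrf1, which guides Dnmt1 to new DNA, was highest in G2/M-like cells by mean and was above or equal to its S-phase-like value in every tumour, without passing the test (log2 fold -0.21, SE 0.32, adjusted p = 0.853), nor at resolution 2 (log2 fold -0.26, SE 0.38, adjusted p = 0.857). Chaf1b, a subunit of the histone chaperone CAF-1, had 91 UMIs in all. Its means ran from 82.7 CPM in S-phase-like cells to 11.4 in the Pde1c-led cluster.

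Next came the checkpoint and regulatory genes. Cdca7 stood at 345, 239, 218 and 224 CPM in S-phase-like cells and 169, 88.1, 176 and 152 in G2/M-like cells. For Cdca7, the Atoh1-led cluster held 337, 458, 212 and 331 CPM, the Pde1c-led cluster 94.3, 58.6, 47.3 and 89.5 and neurons 0, 0, 12 and 36.6. Cdca7, the partner of Hells in remodelling chromatin, was at 130.5% of its S-phase-like mean in the Atoh1-led cluster and at 4.74% in neurons. It was 16.4-fold higher in the Atoh1-led cluster than in neurons (log2 fold 4.04, SE 0.41, adjusted p = 2.99e-14), and the Pde1c-led cluster lay above neurons without overlap (log2 fold 2.00, SE 0.60, adjusted p = 0.0204). Neurons of tumours 1 and 2 had 0 UMIs of Cdca7, so both folds depend on few counts. In tumours 3 and 4 alone the log2 folds were 3.24 (adjusted p = 3.95e-12) and 1.32 (adjusted p = 0.235), and without tumour 4 they were 5.67 (adjusted p = 2.8e-10) and 3.37 (adjusted p = 0.0407). G2/M-like cells were 2.05-fold lower than the Atoh1-led cluster (log2 fold -1.03, SE 0.25, adjusted p = 0.00148), a call kept without each tumour in turn and within both pairs, but not without the tumour term. Clspn was at 504, 389, 91.9 and 270.2 CPM in S-phase-like cells and 496, 352, 176 and 174 in G2/M-like cells. For Clspn, the Atoh1-led cluster held 215, 319, 148 and 111 CPM, the Pde1c-led cluster 0, 58.6, 47.3 and 37.3 and neurons 32.1, 17.9, 12 and 0. Clspn, an adaptor of the replication checkpoint, was highest in the S-phase-like cells of tumour 1. Over the 4 tumours Clspn was 21.4-fold higher in S-phase-like cells than in neurons (log2 fold 4.42, SE 0.49, adjusted p = 3.57e-11), with a log2 fold of 3.59 without tumour 4 (adjusted p = 7.6e-07), and G2/M-like and S-phase-like values overlapped.

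Fam111a stood at 132, 149.5, 103 and 98.7 CPM in S-phase-like cells and 60.5, 70.5, 41.4 and 88.6 in G2/M-like cells. For Fam111a, the Atoh1-led cluster held 30.7, 99.6, 64.2 and 70.3 CPM, the Pde1c-led cluster 23.6, 0, 31.6 and 37.3 and neurons 10.7, 35.9, 0 and 18.3. Fam111a, a PCNA-bound protease, was higher in S-phase-like than in G2/M-like cells of every tumour without overlap, but did not pass the filter. Of its exon bases 14.4% also lie in Gm16274 on the other strand. Slfn9 was at 212, 239, 115 and 62.4 CPM in S-phase-like cells and 157, 247, 41.4 and 50.6 in G2/M-like cells. For Slfn9, the Atoh1-led cluster held 199, 179, 96.3 and 73.2 CPM, the Pde1c-led cluster 0, 29.3, 31.6 and 29.8 and neurons 10.7, 35.9, 0 and 24.4. Slfn9 belongs to the Schlafen family, whose near-identical copies can share reads, so its values are uncertain. It was 4.25-fold higher in the Atoh1-led than in the Pde1c-led cluster (log2 fold 2.09, SE 0.54, adjusted p = 0.00307), with a log2 fold of 2.76 without tumour 4 (adjusted p = 0.00686) and 1.40 in tumours 3 and 4 alone (adjusted p = 0.17). E2f1, the transcription factor of the G1 to S transition, had 93 UMIs in all, and its class means ran from 18.9 CPM in neurons to 69.8 in the Atoh1-led cluster.

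**Figure D4:**
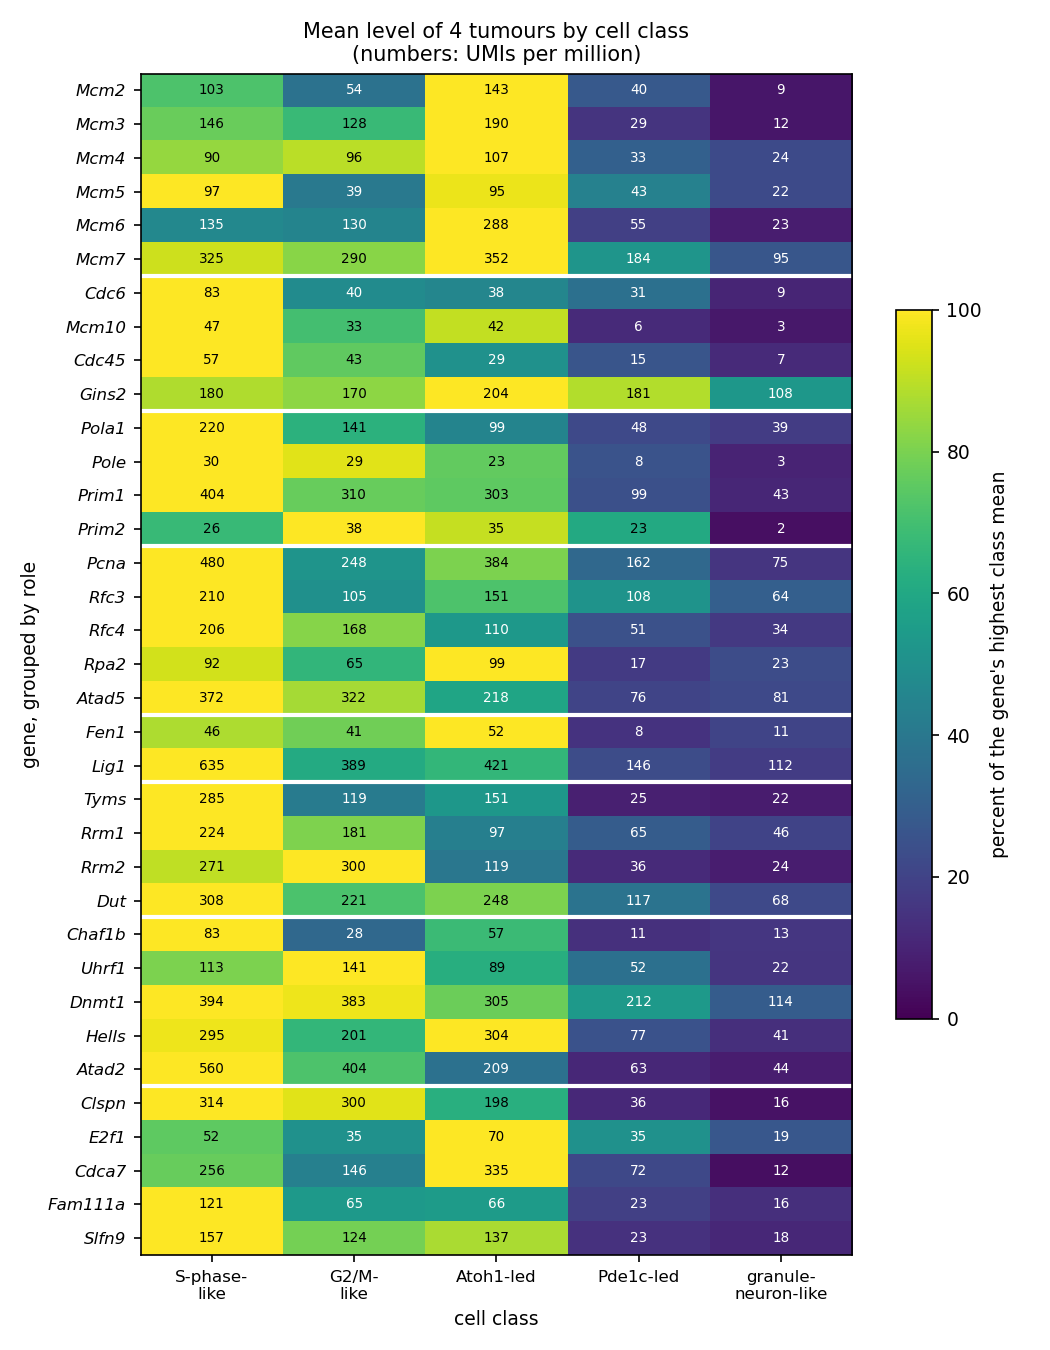
Mean level of each gene over 4 tumours by cell class; numbers are CPM, colours the percent of the gene's highest class, and white lines separate the roles. Most genes peak in S-phase-like cells, 11 in the Atoh1-led cluster, and Gins2 has the highest neuronal percentage.

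Relative to the S-phase-like mean at resolution 1, levels outside that class differed by gene. G2/M-like cells stood at 33.6% (Chaf1b) to 148% (Prim2). These percentages depend on the clustering. At resolution 2 the fitted S-phase-like level was 4.65-fold the G2/M-like one for Mcm2, 3.95-fold for Hells and 2.98-fold for Mcm4, which at resolution 1 stood at 52.2%, 68.2% and 107% in G2/M-like cells. The Atoh1-led cluster stood at 37.3% (Atad2) to 214% (Mcm6). The Pde1c-led cluster stood at 8.68% (Tyms) to 101% (Gins2), and neurons 4.74% (Cdca7) to 60.3% (Gins2). After Gins2 the highest neuronal shares were those of E2f1 (36.1%), Rfc3 (30.5%), Mcm7 (29.2%) and Dnmt1 (28.9%). These neuronal percentages can hold free RNA of other cells, which was not measured.

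Shares of cells with at least 1 UMI of any of the 35 genes were computed with every cell thinned to 500 UMIs. They were 87.8% ± 3.98 in S-phase-like cells, 89.6% ± 2.88 in G2/M-like cells, 78.8% ± 5.42 in the Atoh1-led cluster and 57.2% ± 10.5 in the Pde1c-led cluster (mean ± SD, n = 4). Neurons had a share of 43.2% ± 11.1, and the glial, vessel or immune cells 40.4% ± 15.2 at median depths of 762 and 1067.5 UMIs before thinning. The neuronal share lay within the spread of those other cells, so it is not read as expression in neurons. Thinned to 1000 UMIs, which leaves 106 neurons and 44 other cells, the shares were 63.6% ± 5.84 and 52.7% ± 8.33, and single tumours overlapped. No level of free RNA was estimated, and the other cells may express some of these genes themselves. Unthinned shares were 94.7%, 98.8%, 86.0%, 68.9% and 58.0% in the first 5 classes. In single tumours the thinned neuronal share was 43.1% (47 of 109 cells), 57.4% (39 of 68), 30.3% (33 of 109) and 42.2% (73 of 173), with exact Clopper-Pearson 95% intervals of 33.7 to 53.0%, 44.8 to 69.3%, 21.8 to 39.8% and 34.7 to 49.9% that cover counting error only.

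A fixed list held 64 other replication and nucleotide genes. Of 23 that passed the filter, 17 were higher in S-phase-like cells than in neurons, 14 in G2/M-like cells and 13 in the pooled unnamed clusters, with 0 lower in each, by edgeR. Of all genes tested, 24.7%, 22.2% and 18.2% were called higher in these contrasts. DESeq2 gave 17, 13 and 9, beside 569, 499 and 345 of all 2827 genes called higher. The named genes are those of largest fold that were higher in every tumour, and a gene higher in 3 of 4 is said to be so. The largest log2 folds against neurons in S-phase-like cells were 2.80 (SE 0.45, adjusted p = 6.11e-07) for Chaf1a, the large CAF-1 subunit, and 2.74 (SE 0.44, adjusted p = 5.05e-07) for Topbp1, which helps fire origins. Dbf4, the activator of the origin-firing kinase Cdc7, had 2.62 (SE 0.50, adjusted p = 1.92e-05) but was higher in 3 of 4 tumours only. Tipin, of the fork protection complex, had 2.45 (SE 0.39, adjusted p = 4.38e-07). Shmt2, a mitochondrial folate enzyme, had 2.31 (SE 0.48, adjusted p = 7.47e-05) and Cdc7 2.20 (SE 0.42, adjusted p = 2.2e-05). In G2/M-like cells Dbf4 led with 2.96 (SE 0.45, adjusted p = 1.54e-07), ahead of Chaf1a with 2.74 (SE 0.42, adjusted p = 2.83e-07). Topbp1 then had 2.57 (SE 0.42, adjusted p = 8.08e-07), Timeless, the partner of Tipin, 2.20 (SE 0.43, adjusted p = 2.25e-05) and Shmt2 1.81 (SE 0.48, adjusted p = 0.00177). Cdc7 had 1.90 (SE 0.41, adjusted p = 0.000136) and was higher in 3 of 4 tumours. In the pooled unnamed clusters the 5 largest folds that were higher in every tumour were those of Chaf1a, Topbp1, Timeless, Paics and Rpa3. Paics, a purine synthesis enzyme, had 1.51 (SE 0.27, adjusted p = 7.48e-06) and Rpa3, an RPA subunit, 1.5 (SE 0.37, adjusted p = 0.00107).

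Against the pooled clusters 3 of the 23 were higher in S-phase-like cells, beside 7.11% of all genes. These were Dbf4 at 1.79 (SE 0.38, adjusted p = 0.000397), higher in 3 of 4 tumours, Cdc7 at 1.05 (SE 0.31, adjusted p = 0.0171) and Tipin at 1.03 (SE 0.27, adjusted p = 0.00493). Between S-phase-like and Atoh1-led cells 4 had an unadjusted p under 0.05 by edgeR and by DESeq2, beside 442 and 363 of all 2875 genes. By DESeq2 0 were called higher in S-phase-like cells, beside 123 of all 2875 genes, and by edgeR 2, beside 5.22%. These were Cdc7 at 1.09 (SE 0.34, adjusted p = 0.0338) and Dbf4 at 1.55 (SE 0.40, adjusted p = 0.00439), the latter higher in 3 of 4 tumours. Dbf4 alone of the 23 was higher in G2/M-like cells than in the Atoh1-led cluster, beside 6.78% of all genes, at 1.95 (SE 0.35, adjusted p = 1.02e-05). The Atoh1-led cluster was above the Pde1c-led one in 7 of 23, beside 6.68% of all genes, led by Timeless at 2.26 (SE 0.50, adjusted p = 0.000448), Chaf1a at 1.89 (SE 0.42, adjusted p = 0.000447) and the purine enzyme Ppat at 1.69 (SE 0.42, adjusted p = 0.0018). The methyltransferase Dnmt3a had 1.29 (SE 0.43, adjusted p = 0.0265) and Paics 1.20 (SE 0.27, adjusted p = 0.000519). Against neurons the Atoh1-led cluster was higher in 15 of 23, beside 19.5% of all genes. The named genes were Chaf1a at 2.59 (SE 0.43, adjusted p = 3.32e-07), Topbp1 at 2.22 (SE 0.43, adjusted p = 1.17e-05), Timeless at 2.21 (SE 0.44, adjusted p = 2.29e-05), Paics at 1.76 (SE 0.27, adjusted p = 7.06e-08) and Shmt2 at 1.65 (SE 0.49, adjusted p = 0.00435). S-phase-like cells were above the Pde1c-led cluster in 10 of 23, beside 11.9%. Here Dbf4 had 2.32 (SE 0.53, adjusted p = 0.000339), higher in 3 of 4 tumours. Chaf1a had 2.06 (SE 0.44, adjusted p = 0.000134), Timeless 1.91 (SE 0.56, adjusted p = 0.00699), Tipin 1.77 (SE 0.39, adjusted p = 0.000232), Shmt2 1.55 (SE 0.47, adjusted p = 0.00982) and Topbp1 1.46 (SE 0.39, adjusted p = 0.00289). Between S-phase-like and G2/M-like cells 0 of 23 passed by edgeR and 0 by DESeq2. An unadjusted p under 0.05 was reached by 5 and 4, beside 307 and 193 of all 2827 genes. Between the Pde1c-led cluster and neurons 0 passed by either. Here 5 and 4 had an unadjusted p under 0.05, beside 587 and 462 of all 2875 genes.

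By tumour, the 35 genes summed over all cells to 3937, 4369, 4389 and 4904 CPM in tumours 1 to 4, a mean of 4400 ± 396. Without the mitochondrial limit the sums were 4127, 4559, 4367 and 4899. Single genes differed more between the libraries than the sum did. In tumours 1 and 2, 18 genes were below both other tumours and 7 above both (Gins2, Slfn9, Clspn, Lig1, Atad5, E2f1, Atad2). Of all 4744 genes with at least 100 UMIs, 43.7% were lower and 32.7% higher in that way, so such gaps were common over all genes. Gins2 stood at 165, 294, 81.5 and 101 CPM in tumours 1 to 4, Lig1 at 397, 412, 239 and 242 and Clspn at 229, 214, 103 and 132. Rrm2 ran the other way at 75.3, 92.8, 207 and 240.0 CPM, Dut at 57.9, 189.6, 245 and 292 and Mcm6 at 72.4, 84.7, 209 and 177. Dnmt1 (296, 266, 249 and 291), Prim1 (220.2, 234, 221 and 254) and Cdca7 (156, 157, 145 and 188) overlapped between the pairs. The share over the mitochondrial limit moved with the same pairs of libraries, and its part in these differences was not tested.

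**Figure D5:**
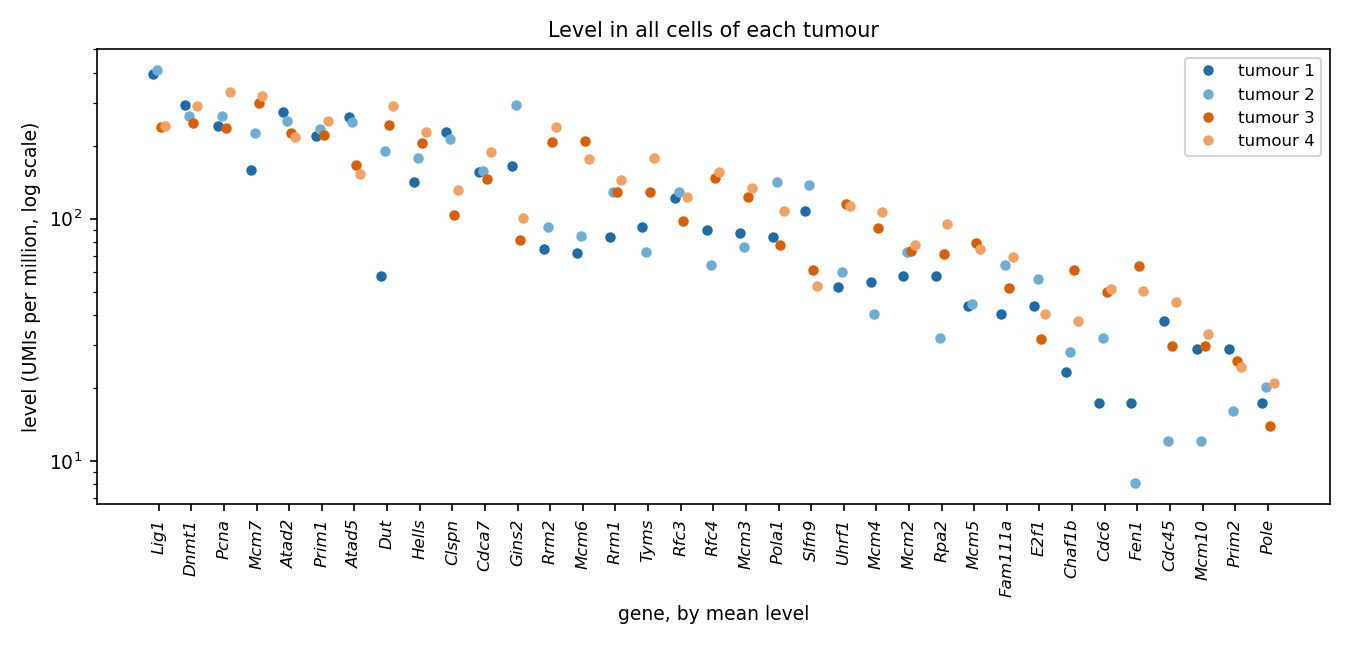
Level of each of the 35 genes in all cells of each tumour, in CPM on a log axis; colours are the 4 tumours. Tumours 1 and 2 (blue) lie above tumours 3 and 4 (orange) for Gins2, Slfn9, Clspn, Lig1 and Atad5 and below them for Rrm2, Mcm6 and Fen1.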

How the data were processed

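Drop-seq libraries of 4 tumours, dissociated with papain, were used as deposited tables of raw UMI counts per gene and cell barcode (15002 genes). Alignment by STAR to mm10 is named in the submitters' processing notes, and the counting software, annotation, strand use and barcode filter are not given in the sources used here. The 6 further deposited tables (11203 cell columns) were not used here. Cells had at least 500 UMIs and 200 genes, at most 10% mitochondrial UMIs and at most 4 SD above the tumour median in UMIs. Scrublet (expected rate 6%) marked doublets in each tumour, and those were removed. On log values of counts per 10000 UMIs of a cell, 2000 variable genes, centred and scaled within each library, gave 30 components, 15 neighbours and Leiden clusters at resolution 1 (scanpy 1.11.5, leidenalg 0.10.2). The 35 genes and the list of 64 were not clustering features. A cluster took a name when at least 4 markers were among its top 50 genes by fold and their mean log2 fold was at least 0.4. Where several lists met this, the one with most markers in the top 10 genes was taken, then in the top 50. The rule was chosen after the data were seen. Cells with UMIs of at least 4 glial, vessel or immune markers were set aside.

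Counts were summed per class and tumour (at least 10 cells) and tested with edgeR 4.0.16 in R 4.3.3 (quasi-likelihood test, TMM scaling, filterByExpr, tumour as a block, Benjamini-Hochberg adjusted p under 0.05 over all genes tested). Classes of 1 tumour come from 1 library and so are paired. Their deviations correlated at r = 0.347 to 0.813 over 2827 genes. Data were simulated for S-phase-like cells against neurons (2771 genes tested). In them 97.7% of 4-fold rises, 95.2% of 4-fold falls, 71.4% of 2-fold rises and 47.1% of 2-fold falls were recovered. Of the genes called there, 1.04% were unchanged ones. Intervals on shares are Clopper-Pearson and cover counting error only. Genes with at least 100 UMIs over all cells are given with full values, the other 6 by counts and ranges. Of the list of 64, the 5 largest folds per contrast among genes called and of the same sign in every tumour are named. Dbf4 and Cdc7, where called but higher in 3 of 4 tumours, were added after their values were seen. The 35 genes, the lists and the alternatives were chosen with earlier results of these data known. Alternatives covered scaling, filters, DESeq2 1.42.0, the block, classing, doublets, depth and each tumour left out.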

Additional observations from a re-analysis of the deposited data

How the results depend on the processing

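The following counts are of the 35 genes called. Alternatives are listed where they moved the count by more than 1.5 times, and leaving out 1 tumour is then a range. Counts nearer the reported one, higher or lower, are not listed. After each list stand the calls over all genes tested, in either direction and the same order, from the reported fit on. The cause of a change was not tested unless fewer genes or samples were tested. S-phase-like against G2/M-like cells (2 in the reported fit) gave 1 with DESeq2, 1 with all genes allowed as clustering features, 14 by most marker UMIs, 8 with doublets kept, 15 at resolution 2, 0 with no filter on low counts, 0 without the replicate block (the tumour term), 0 after thinning to 500 UMIs, 0 in tumours 1 and 2 alone, 1 in tumours 3 and 4 alone and 0 to 1 with 1 tumour left out. Over all genes these were 20 of 2827, 14 of 2827, 14 of 2970, 223 of 4621, 55 of 3059 and 132 of 3024. They continued with 29 of 14446, 0 of 2827, 8 of 1616, 5 of 2124, 32 of 5121 and 6 to 21. S-phase-like cells against the pooled unnamed clusters (11) gave 7 with no low-count filter, 1 without the replicate block, 6 at resolution 2, 4 after thinning, 4 in tumours 1 and 2 alone and 7 to 9 with 1 tumour left out. For all genes the calls were 300 of 2827, 348 of 14446, 86 of 2827, 63 of 3024 and 193 of 1616. They continued with 107 of 2124 and a range of 189 of 2774 to 311 of 3226. The pooled clusters against neurons (23) gave 12 of 12 tested in cells with at least 1000 UMIs and 500 genes, 2 by most marker UMIs, where this class exists in tumours 3 and 4 only, 12 without the replicate block, 13 of 16 tested after thinning, 11 in tumours 1 and 2 alone and 15 to 27 with 1 tumour left out. All genes gave 904 of 2827, 424 of 1294, 196 of 4621, 135 of 2827 and 479 of 1616. They continued with 240 of 2124 and a range of 488 of 2774 to 1019 of 3226. G2/M-like cells against neurons (21) gave 8 of 12 tested with at least 1000 UMIs, beside 1166 of 2827 and 369 of 1294 over all genes. S-phase-like cells against neurons (22) stayed within 1.5 times of that count under each alternative that gave the class.

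Of the contrasts with the unnamed clusters apart, chosen after seeing the data, S-phase-like against Atoh1-led (7) gave 4 with DESeq2, 3 with no low-count filter, 1 without the replicate block, 2 after thinning, 1 in tumours 1 and 2 alone and 1 to 7 with 1 tumour left out. Over all genes these were 190 of 2875, 138 of 2875, 202 of 14446, 62 of 2875 and 100 of 1319. They continued with 50 of 1669 and a range of 85 of 2271 to 205 of 3290. G2/M-like against Atoh1-led (7) gave 4 with DESeq2, 0 without the replicate block, 4 after thinning, 1 in tumours 1 and 2 alone, 4 in tumours 3 and 4 alone and 2 to 5 with 1 tumour left out. For all genes the calls were 262 of 2875, 177 of 2875, 78 of 2875, 120 of 1319 and 76 of 1669. They continued with 323 of 4620 and a range of 123 of 2271 to 255 of 3290. Atoh1-led against Pde1c-led (18) gave 3 without the replicate block, 9 of 14 tested after thinning and 7 in tumours 1 and 2 alone. All genes gave 435 of 2875, 34 of 2875, 248 of 1319 and 124 of 1669. Pde1c-led against neurons (4) gave 2 with DESeq2, 2 with all genes allowed as features, 0 with no low-count filter, 0 without the replicate block, 2 after thinning, 0 in tumours 1 and 2 alone and 0 to 4 with 1 tumour left out. Calls over all genes were 246 of 2875, 181 of 2875, 246 of 2800, 268 of 14446 and 5 of 2875. They continued with 134 of 1319, 28 of 1669 and a range of 92 of 2271 to 302 of 3290. Atoh1-led against neurons (24) gave 12 of 14 tested after thinning and 11 of 18 tested in tumours 1 and 2 alone. Here all genes gave 1075 of 2875, 528 of 1319 and 329 of 1669. S-phase-like against Pde1c-led (21) gave 12 without the replicate block, 12 of 14 tested after thinning and 10 of 18 tested in tumours 1 and 2 alone. There all genes gave 664 of 2875, 206 of 2875, 349 of 1319 and 221 of 1669.

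Of 2447 alternative values of the 160 called folds, 2106 kept direction and call, 332 lost the call and 9 changed sign. Those 9 were in the pooled clusters against neurons: by most marker UMIs the log2 fold was -0.13 for Atad5, -0.081 for Dnmt1, -2.11 for Gins2, -0.29 for Prim1, -0.27 for Rfc3, -0.51 for Rrm1, -0.35 for Rrm2 and -0.17 for Tyms, and in tumours 1 and 2 alone it was -0.031 for Rrm1. By most marker UMIs the log2 fold of S-phase-like cells against neurons was 1.46 for Prim1, 2.57 for Clspn, 1.28 for Dut and 1.12 for Mcm7. The S-phase-like share of cells (16.2%) was 9.82% at resolution 2 and 11.3% by most marker UMIs. The S-phase-like class could not be formed at resolution 0.5, without centring within libraries, without the mitochondrial limit or at 1000 UMIs. The summed level of the 35 genes was 5003 CPM with at least 1000 UMIs. The share of cells with a UMI of the 35 genes, unthinned or thinned to 1000, was 94.7% or 99.1% in S-phase-like, 98.8% or 98.9% in G2/M-like, 86.0% or 95.9% in Atoh1-led, 68.9% or 85.1% in Pde1c-led and 58.0% or 63.6% in granule-neuron-like cells, against 52.7% of the glial, vessel or immune cells thinned to 1000. Upper-quartile scaling moved the median log2 fold of all genes to -0.12 for S-phase-like cells against the pooled clusters and to -0.10 against the Atoh1-led cluster. At about 800 UMIs a cell, 11 or 12 of the 35 genes were too sparse to test.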

Other observations

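The number of the 35 genes detected in a single cell differed by class. The median cell had UMIs of 4 of them in the S-phase-like class, 5 in the G2/M-like class, 3 in the Atoh1-led cluster and 1 each in the Pde1c-led cluster, neurons and the glial, vessel or immune cells. At least 3 were detected in 69.8% of S-phase-like, 84.8% of G2/M-like and 57.4% of Atoh1-led cells, against 18.1% in the Pde1c-led cluster, 9.37% in neurons and 21.2% of the glial, vessel or immune cells. The cell with the most in the Pde1c-led cluster had 23, as many as the highest G2/M-like cell, and the highest neuron had 11. These counts are unthinned, and G2/M-like cells were deeper (median 1581.5 UMIs) than the others.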
